A study of Mus musculus with 18 samples.

Results

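The 9 genes followed here in kidney RNA lie near the distal end of mouse chromosome 4: *Prxl2b*, *Ccnl2*, *Aurkaip1*, *Mxra8*, *Dvl1*, *Cptp*, *Ints11*, *Acap3*, and *Ube2j2*. They are 9 of the 78239 genes listed for each library. They were chosen by the differences of *Dvl1*, *Cptp*, and genes close to them between low protein (LP) and normal protein (NP) males in these same libraries, so the male values below describe that choice and carry no test. The question was whether neighbouring genes moved together as a segment or whether single genes moved alone. All 9 had at least 97 counts in each of the 18 libraries and were tested in every comparison.

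The libraries came from wild-type offspring of CD-1 mice, an outbred stock, at 6 wk of age, with 1 library per mouse from a piece of the left kidney. LP males (n = 5) and LP females (n = 5) were born to dams fed a diet with 8% protein through gestation and lactation, and NP males (n = 5) and NP females (n = 3) to dams fed 18% protein. All offspring ate the NP diet after weaning at 3 wk. Every mouse had been injected with cationic ferritin, and the interval from the last injection to collection was shorter in males than in females, so sex and collection time cannot be told apart. The litter of each library is not given in the labels, so P values measure the spread between these mice, some of which may be littermates.

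*Dvl1* encodes a Dishevelled protein, a scaffold that carries Wnt signals from Frizzled receptors into the cell, both to β-catenin and to the planar polarity branch, and Wnt signaling is required for nephron formation. The genes beside it have unrelated roles. *Cptp* encodes a transfer protein for ceramide-1-phosphate, *Prxl2b* a peroxiredoxin-like prostamide/prostaglandin F synthase, *Ints11* the RNA-cleaving subunit of the Integrator complex, *Aurkaip1* a protein of the small mitochondrial ribosomal subunit, *Ccnl2* a cyclin tied to splicing, *Mxra8* a cell-surface adhesion protein and alphavirus receptor, *Acap3* a GTPase-activating protein for Arf6, and *Ube2j2* a ubiquitin-conjugating enzyme of the endoplasmic reticulum.

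On GRCm39 with GENCODE vM39, *Prxl2b* lies on the minus strand at chr4:154976876-154983592, and 948 kb separate its model from the start of *Dvl1*. The other 8 genes are close together. *Ccnl2* (chr4:155896669-155909004), *Aurkaip1* (chr4:155915680-155917587), *Mxra8* (chr4:155923892-155928559), and *Dvl1* (chr4:155931797-155949171) follow each other on the plus strand. *Cptp* (chr4:155949176-155953912) lies on the minus strand, and 4 bases separate its end from the end of *Dvl1*, so these genes converge. *Ints11* (chr4:155953994-155973562) points away from *Cptp*, with 81 bases between the outer limits of their gene models, and *Acap3* (chr4:155976246-155991876) and *Ube2j2* (chr4:156028143-156044975) follow on the plus strand.

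The sequences of 3 start regions are shown because *Dvl1* and *Prxl2b* each start alone, whereas *Cptp* shares a divergent start region with *Ints11*. Each was read from GRCm39 before the start of the canonical transcript, 5′ to 3′ on the strand of the gene (plus strand for the shared region). Longer transcript models of *Prxl2b* and *Ints11* begin slightly upstream of their canonical starts. Capitals mark matches on either strand to any of 4 short motifs. The GC box was searched as GGGCGG, the CCAAT box by the letters of its name, the TATA box as TATAAA, and the core of binding sites of ETS factors as CCGGAA.
Dvl1, 250 bases, chr4:155931547-155931796: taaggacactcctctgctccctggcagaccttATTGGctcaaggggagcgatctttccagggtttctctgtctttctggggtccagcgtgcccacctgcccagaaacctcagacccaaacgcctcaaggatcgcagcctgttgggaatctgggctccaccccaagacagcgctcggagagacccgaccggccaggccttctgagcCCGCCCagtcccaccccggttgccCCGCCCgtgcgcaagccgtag
Prxl2b, 250 bases, chr4:154983569-154983818: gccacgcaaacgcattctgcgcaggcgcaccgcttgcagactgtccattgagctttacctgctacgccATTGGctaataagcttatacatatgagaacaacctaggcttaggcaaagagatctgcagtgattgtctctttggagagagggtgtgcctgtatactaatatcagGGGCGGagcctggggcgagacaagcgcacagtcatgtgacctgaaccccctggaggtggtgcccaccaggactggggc
Cptp-Ints11, 89 bases, chr4:155953913-155954001: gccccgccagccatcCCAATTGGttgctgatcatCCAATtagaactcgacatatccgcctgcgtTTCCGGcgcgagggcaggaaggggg

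The *Dvl1* sequence held 2 GC boxes and 1 CCAAT box, and the *Prxl2b* sequence held 1 of each. Of 21769 regions of 250 bases before the canonical starts of protein-coding genes, 36.3% held a GC box, 36.5% a CCAAT box, 11.9% a TATA box, and 12.4% the ETS core. The 89 bases between *Cptp* and *Ints11* held 3 CCAAT matches, a pair of which overlap as a palindrome, and 1 ETS core. Of regions of 89 bases before the same starts, 20.1% held a CCAAT box and 7.24% the ETS core. No TATA box was matched in the 3 sequences. GC content was 63.6% before *Dvl1*, 54.8% before *Prxl2b*, and 60.7% between *Cptp* and *Ints11*, against a median of 53.2% over the regions of 250 bases and 57.3% over those of 89 bases. These matches describe letters and not bound sites.

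Libraries held 14050486 to 23562411 reads counted on genes, and 28.6% to 36.1% of the reads were not counted on a single gene. The 4 kidney tubule markers *Slc34a1*, *Umod*, *Slc12a3*, and *Aqp2* were present in every library, with a summed level between 7477 and 10350.5 normalised CPM (counts scaled by the TMM method to a common library size). Markers of other tissue that a piece of kidney could hold were uneven. The summed level of 3 inner medulla markers ran from 146 to 765 normalised CPM, of 4 fat markers from 0 to 64.7, of 3 red cell markers from 10.3 to 156 (*Hbb-bs* at 0 in all 18), of 3 leukocyte markers from 6.30 to 18.1, and of 3 adrenal markers from 0.426 to 3.66 (*Cyp11b1* at 0 in all 18). LP female 1, LP female 2, and NP female 3 had stood apart from the other libraries in earlier results of these data, and the female diet and sex differences are therefore also given without them where this moved them. As these are bulk tissue, fewer cells of a type and less RNA per cell cannot be told apart.

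Per kilobase of exon, and averaged over NP males, *Aurkaip1* had the highest level of the 9 genes, at 45.1 normalised CPM per kb. *Prxl2b* followed with 19.2, *Cptp* with 17.5, *Dvl1* with 12.1, *Ccnl2* with 9.84, and *Ints11* with 6.56. *Mxra8* (3.06), *Ube2j2* (2.65), and *Acap3* (1.49) were the lowest. In LP males *Prxl2b* stood at 4.33 normalised CPM per kb and *Dvl1* at 7.90, below *Ccnl2* at 9.03, so their place in this order differed between male groups.

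**Figure D1:**
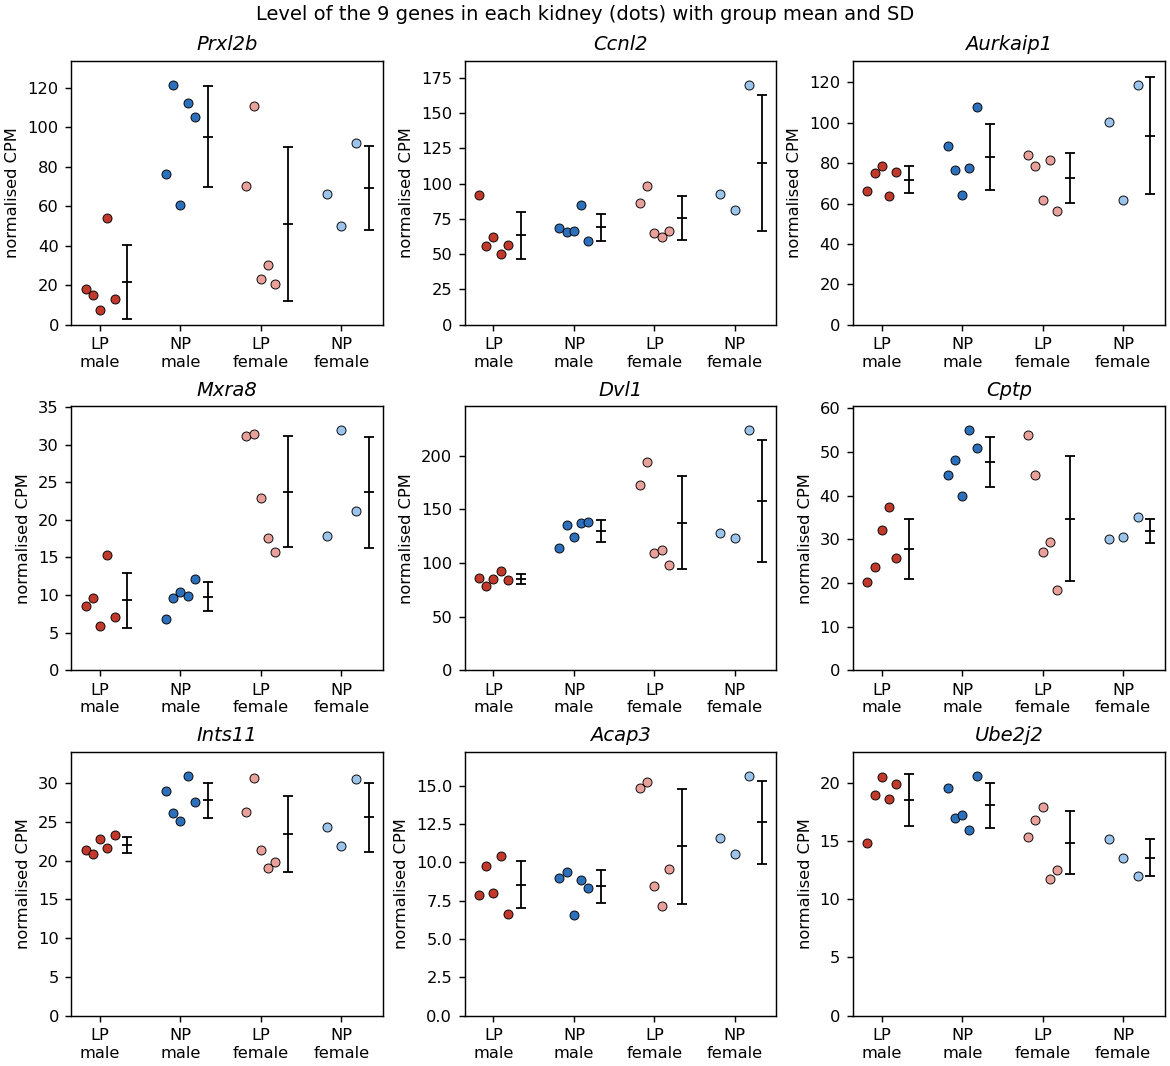
Normalised CPM of the 9 genes (y axes, linear from 0) in the 4 groups (x axes), in chromosome order, where each dot is 1 mouse and the bar beside it is the group mean ± SD. LP and NP males do not overlap for *Prxl2b*, *Dvl1*, *Cptp*, and *Ints11*, and males lie below all females for *Mxra8*.

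*Dvl1*, *Cptp*, *Prxl2b*, and *Ints11* were lower in every LP male than in every NP male, whereas the other 5 genes overlapped between the male groups. *Dvl1* stood at 85.7, 78.6, 84.6, 92.1, and 83.8 normalised CPM in LP males 1 to 5 and at 114, 136, 124, 137, and 139 in NP males 1 to 5. The LP values were tightly grouped, with 22.2 CPM between the highest LP male and the lowest NP male. The log2 fold change was -0.61 (SE 0.08), that is 1.52-fold lower in LP males.

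*Cptp*, whose end nearly touches the end of *Dvl1*, stood at 20.3, 23.6, 32.2, 37.4, and 25.7 normalised CPM in LP males 1 to 5. In NP males 1 to 5 it stood at 44.7, 48.3, 39.9, 55.0, and 51.0. LP male 4 was the highest LP male for both genes, and for *Cptp* it came within 2.55 CPM of the lowest NP male. The log2 fold change was -0.77 (SE 0.16), that is 1.70-fold lower in LP males.

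*Ints11*, which begins beside *Cptp* and is read in the opposite direction, stood between 20.8 and 23.3 normalised CPM in LP males (median 21.6) and between 25.1 and 30.9 in NP males (median 27.5). Its log2 fold change was -0.33 (SE 0.09), nearer to 0 than that of *Cptp* across the shared start region, and this difference was not tested. The groups were separated by 1.80 CPM.

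*Prxl2b*, far from the others, had the widest spread of the 9 genes, with 16.7-fold between its lowest and highest library. It stood at 18.01, 15.2, 7.26, 54.3, and 12.98 normalised CPM in LP males 1 to 5 and at 76.7, 122, 60.7, 112, and 105 in NP males 1 to 5. LP male 4 was 3.01 times as high as the next LP male and close to the lowest NP male. The log2 fold change was -2.13 (SE 0.45), that is 4.37-fold lower in LP males, and it was -2.84 without LP male 4. The summed fat markers were also highest among LP males in LP male 4, at 29.8 normalised CPM against 0.110 to 0.872 in the other 4. NP female 3 (57.1) likewise had the most fat markers and the most *Prxl2b* of its group. NP male 3 (25.3) and LP female 5 (64.7) had the most fat markers but the least *Prxl2b* of their groups. The part of fat in the *Prxl2b* level was not tested.

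The genes on the other side of *Dvl1* overlapped between the male groups. *Mxra8*, which ends 3.24 kb before *Dvl1* starts, had 9.29 ± 3.66 normalised CPM in LP males and 9.76 ± 1.95 in NP males (mean ± SD, n = 5 each). *Aurkaip1* had 71.8 ± 6.54 and 83.0 ± 16.3, and *Ccnl2* had 63.3 ± 16.7 and 69.0 ± 9.66. Beyond *Ints11*, *Acap3* had 8.53 ± 1.53 normalised CPM in LP males and 8.42 ± 1.11 in NP males, and *Ube2j2* had 18.6 ± 2.24 and 18.1 ± 1.94. The log2 fold changes of these 5 genes lay between -0.20 and 0.04.

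Thus 4 of the 9 genes did not overlap between male groups, all lower in LP males, against 0.448% of the 13181 genes tested that did not overlap in that direction and 0.228% that did not overlap in the other. As a description of that choice and not a test of it, 1 of the 9, *Dvl1*, was among the 0.0379% of genes lower in LP males at edgeR's adjusted P under 0.05 with at least a 1.5-fold change, and 0 were higher, against 0%. Nothing is read from these shares, because the male contrast chose the genes. The median log2 fold change of the 9 genes was -0.20, and that of all genes tested was -0.0039.

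Genes between and around these 4 were mostly close to 0 in males. Of 47 other genes tested from 1890.1 kb before the start of *Dvl1* to the end of the chromosome, 0 were called by edgeR, with 3 at an unadjusted P under 0.05 and 0 called by DESeq2. The male groups did not overlap for 1 of the 47, *Noc2l*, a nucleolar protein gene 389 kb beyond the start of *Dvl1*, with a log2 fold change of -0.26. Among the 21 other genes between *Prxl2b* and *Ccnl2*, 0 were separated, and their median log2 fold change was -0.0050. *Pusl1*, whose exons overlap those of *Ints11* on the opposite strand, had a log2 fold change of 0.04.

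**Figure D2:**
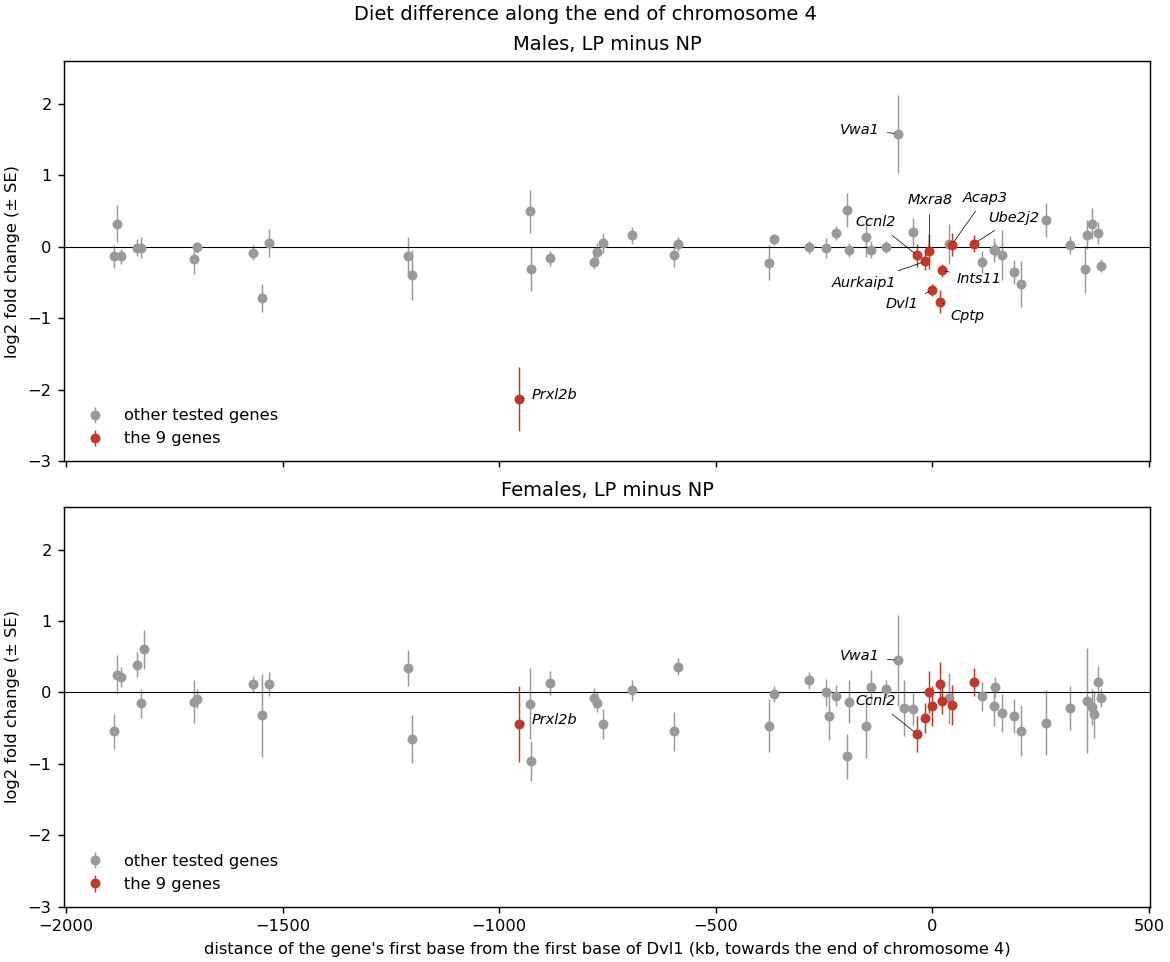
Log2 fold change of LP over NP (y axis, ± SE) for every gene tested from 1890.1 kb before *Dvl1* to the end of chromosome 4, against distance from the start of *Dvl1* in kb (x axis), in males above and females below, with the 9 genes in red and the others in grey. In males *Dvl1* (-0.61), *Cptp* (-0.77), *Ints11* (-0.33), and the distant *Prxl2b* (-2.13) lie below 0, with genes near 0 between them and *Vwa1* at 1.58.

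*Vwa1*, an extracellular matrix gene at chr4:155852606-155859155, was singled out after its values had been seen and is not among the 9 genes, so no test of its male values is given. It had 193, 283, 390, 92.9, and 312 normalised CPM in LP males 1 to 5 and 190, 24.01, 132, 35.9, and 44.6 in NP males 1 to 5. The groups overlapped, and its levels ran opposite to *Prxl2b*: LP male 4, with the most *Prxl2b* among LP males, had the least *Vwa1*, and LP male 3, with the least *Prxl2b*, had the most *Vwa1*. Among NP males the lowest values of *Prxl2b* were in NP males 3 and 1, which had the most *Vwa1*. *Ankrd65* (chr4:155873544-155884254), also picked out afterwards and too low to be tested, had between 49 and 152 counts in LP males, 43 and 37 in NP males 1 and 3, and 0 to 2 in the other 3 NP males.

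**Figure D3:**
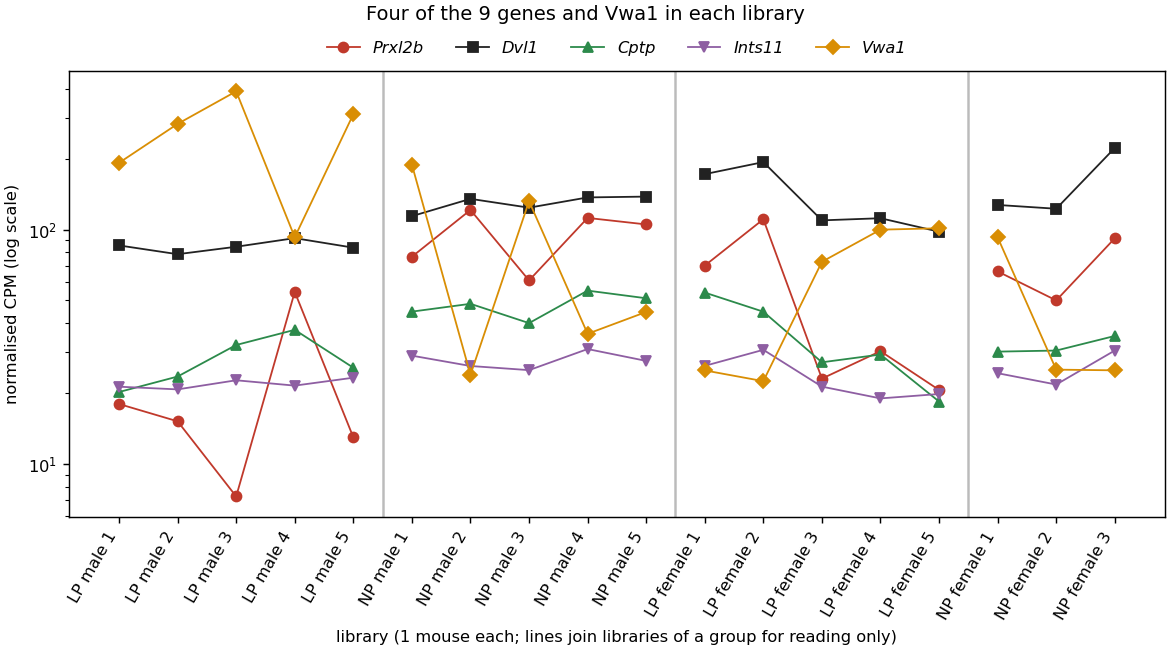
Normalised CPM (y axis, log scale) of *Prxl2b*, *Dvl1*, *Cptp*, *Ints11*, and *Vwa1* in each of the 18 libraries (x axis), where lines join the libraries of a group for reading only. *Vwa1* falls where *Prxl2b* peaks, as in LP male 4 (92.9 against 54.3) and NP male 2 (24.01 against 122).

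In females none of the 9 genes passed the test between diets. *Dvl1* stood at 173, 195, 110, 112, and 98.1 normalised CPM in LP females 1 to 5 and at 128, 123, and 224 in NP females 1 to 3. *Cptp* stood at 53.9, 44.7, 27.1, 29.3, and 18.5 in LP females and at 30.2, 30.5, and 35.2 in NP females. *Prxl2b* stood at 70.3, 111, 23.1, 30.3, and 20.7 in LP females and at 66.4, 49.9, and 92.0 in NP females. For all 3 genes the groups overlapped over the 8 females, with LP females 1 and 2 above the other LP females. Among the 5 females other than LP females 1 and 2 and NP female 3, the LP libraries were below the NP libraries for each of the 3 genes.

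By edgeR's quasi-likelihood test the log2 fold change in females was -0.19 (SE 0.28, adjusted P = 0.929) for *Dvl1*, 0.12 (SE 0.31, adjusted P = 0.954) for *Cptp*, and -0.44 (SE 0.53, adjusted P = 0.914) for *Prxl2b*. *Ccnl2* had the lowest P of the 9 genes, at -0.58 (SE 0.25, adjusted P = 0.886), with 62.3 to 98.0 normalised CPM in LP females and 80.9 to 170 in NP females. Of the 9 genes 0 were up- or down-regulated in LP females, against 0% of the 13510 genes in each direction. *Ccnl2* was the 1 gene of the 9 at an unadjusted P under 0.05, as were 564 of all genes, and DESeq2 called 0 of the 9 and 9 of all genes. None of the 9 was free of overlap between female groups, against 1.64% of all genes higher and 1.26% lower in LP females. Whether the diet difference itself differed between the sexes was not tested, since that contrast contains the male contrast that chose the genes.

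LP female 1, LP female 2, and NP female 3 were high for most of the 9 genes. In LP females 1 and 2, 7 of the 9 genes were above all other LP females, the exceptions being *Aurkaip1* and *Ube2j2*. In NP female 3, 7 of the 9 were above both other NP females, the exceptions being *Mxra8* and *Ube2j2*. *Acap3*, for example, had 14.9 and 15.2 normalised CPM in LP females 1 and 2 against 7.11 to 9.57 in the other LP females, and 15.6 in NP female 3 against 10.55 and 11.6. The summed inner medulla markers were lower in these 3 libraries, at 179.9, 359, and 299.98 normalised CPM, than in the other 5 females, at 567 to 765. The summed kidney tubule markers were lower in them too, at 7883, 7493, and 7477 normalised CPM against 9353 to 10350.5. The part of either in these levels was not tested.

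Without these 3 libraries all 9 log2 fold changes between diets in females were below 0, against 51.4% of the 14183 genes tested. *Prxl2b* moved most, from -0.44 to -1.23 (SE 0.22), that is 2.35-fold lower in LP females. *Prxl2b* then stood at 20.7 to 30.3 normalised CPM in 3 LP females and at 49.9 to 66.4 in 2 NP females, *Dvl1* at 98.1 to 112 and 123 to 128, *Cptp* at 18.5 to 29.3 and 30.2 to 30.5, and *Ints11* at 19.03 to 21.4 and 21.8 to 24.4. With *Ccnl2* and *Acap3*, 6 of the 9 genes did not overlap, all lower in LP females, against 9.1% of the 14183 genes tested that did not overlap in that direction and 10.3% in the other. The log2 fold change was -0.23 for *Dvl1*, -0.27 for *Cptp*, -0.19 for *Ints11*, -0.42 for *Ccnl2*, -0.39 for *Acap3*, -0.40 for *Mxra8*, -0.28 for *Aurkaip1*, and -0.02 for *Ube2j2*, with a change of sign for *Mxra8*, *Cptp*, and *Ube2j2*. None of the 9 passed edgeR's test, with an adjusted P of 0.972 to 0.995. Their median was -0.28, and that of all genes tested was -0.0075.

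*Mxra8* was the member of the group with a clear difference between the sexes. It stood at 8.57, 9.59, 5.89, 15.3, and 7.06 normalised CPM in LP males 1 to 5 and at 6.77, 9.63, 10.4, 9.81, and 12.2 in NP males. In females it stood at 31.2, 31.5, 22.9, 17.6, and 15.8 in LP females and at 17.8, 31.9, and 21.2 in NP females. All 10 males were below all 8 females, though LP male 4 came close to LP female 5. The log2 fold change of males over females was -1.31 (SE 0.20, edgeR adjusted P = 5.78e-05), that is 2.47-fold lower in males. It was -1.34 within LP libraries, -1.26 within NP libraries, and -1.18 without the 3 females that stood apart. The summed inner medulla markers stood at 146 to 494 normalised CPM in the 10 males and at 179.9 to 765 in the 8 females, and their part in the sex differences was not tested.

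Of the 9 genes, *Mxra8* alone passed both the adjusted P and the 1.5-fold limit in the sex comparison, so that 1 of 9 was higher in females, against 11.5% of the 12665 genes tested, and 0 of 9 higher in males, against 7.22%. By adjusted P alone 4 were higher in females, against 19.8% of genes, and 1 was higher in males, against 18.9%. The 3 smaller female-biased differences were in *Dvl1* (-0.48, SE 0.14, edgeR adjusted P = 0.0129), *Ccnl2* (-0.48, SE 0.16, adjusted P = 0.0202), and *Acap3* (-0.47, SE 0.16, adjusted P = 0.0274). For *Dvl1* the median was 84.6 normalised CPM in LP males and 112 in LP females, but 136 in NP males and 128 in NP females. Its sex difference thus rests in part on the low LP males that chose the gene. All 3 genes failed the adjusted P limit without NP female 3 (adjusted P = 0.0606, 0.102, and 0.0809), and without all 3 females that stood apart (adjusted P = 0.120, 0.276, and 0.274), and *Acap3* also without LP female 1 (adjusted P = 0.0529). Over all 26 alternatives the adjusted P ranged from 0.00483 to 0.388 for *Dvl1*, from 0.00451 to 0.399 for *Ccnl2*, and from 0.00901 to 0.309 for *Acap3*. It passed 0.05 in 22 of the 26 for *Dvl1*, 21 for *Ccnl2*, and 19 for *Acap3*. For every gene the alternatives include the fits within LP and within NP libraries. These use the male groups that chose the genes, so nothing is read from their part in the ranges and counts.

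*Ube2j2* was the gene higher in males, with 14.8 to 20.6 normalised CPM in males and 11.8 to 17.96 in females (log2 fold change 0.38, SE 0.10, edgeR adjusted P = 0.00832). Of the reads counted for it on either strand, a median of 52.2% per library, between 38.8% and 70.6%, is left out of the strand-blind count. These may include reads of genes that overlap it on the other strand. When reads were counted on each strand and summed, its sex difference was 0.25 (adjusted P = 0.0874, with a range over the alternatives of 0.00184 to 0.132).

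For *Prxl2b* (-0.38, adjusted P = 0.446), *Cptp* (0.14, adjusted P = 0.558), *Aurkaip1* (-0.08, adjusted P = 0.631), and *Ints11* (0.02, adjusted P = 0.889) the sex difference did not pass edgeR's test. Without the 3 females that stood apart *Cptp* was higher in males by 0.41 (SE 0.15, adjusted P = 0.0378), with an adjusted P of up to 0.814 over its 26 alternatives. For *Prxl2b* and for *Cptp*, LP and NP libraries pointed in opposite directions. In *Prxl2b* the log2 fold change of males over females was -1.23 (SE 0.59) in LP libraries and 0.48 (SE 0.26) in NP libraries. In *Cptp* it was -0.30 (SE 0.27) in LP libraries and 0.60 (SE 0.14) in NP libraries. These within-diet values use the male groups that chose the genes and are given without a test.

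**Figure D4:**
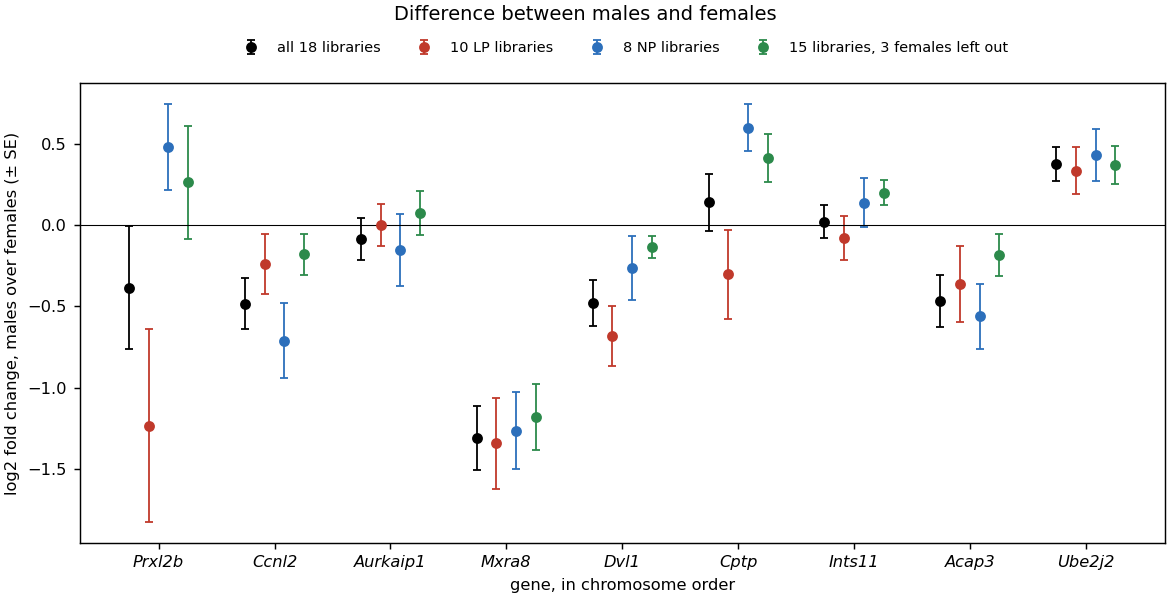
Log2 fold change of males over females (y axis, ± SE) for each of the 9 genes in chromosome order (x axis), from all 18 libraries, the 10 LP libraries, the 8 NP libraries, and the 15 libraries without the 3 females that stood apart. *Mxra8* lies between -1.34 and -1.18 in all 4 sets, while *Prxl2b* and *Cptp* lie on opposite sides of 0 in LP and NP libraries.

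Library by library, with group means removed, the 9 genes varied together in the whole set and much less without the 3 females that stood apart. Over 18 libraries the median Pearson r of the 36 pairs was 0.46, and 33 pairs were above 0, against a median of 0.09 for 12643 pairs of neighbouring genes across the genome. The quartiles of the latter were -0.23 and 0.42. The sets are not alike, since the 36 pairs also join genes that are not neighbours. Without the 3 females the median was 0.12 over 15 libraries, with 21 of 36 pairs above 0 and 0.11 for neighbours across the genome. In the 10 males it was 0.10, with 20 of 36 pairs above 0 and 0.10 across the genome. The points are libraries of 4 groups that differ in depth, and these r are descriptions.

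Among single pairs, *Dvl1* and *Cptp* had an r of 0.74 in 18 libraries, 0.67 without the 3 females (Spearman's rho 0.75), and 0.57 in the 10 males (rho 0.65). *Prxl2b* and *Dvl1*, which are 948 kb apart, had an r of 0.72, 0.58 (rho 0.79), and 0.58 (rho 0.73). By contrast *Dvl1* and *Ints11* had 0.86 in 18 libraries but 0.11 without the 3 females and 0.09 in males. Like values were also found in pairs with a gene that overlapped between the male groups. *Dvl1* and *Mxra8* had 0.48 without the 3 females and 0.59 in males, and *Prxl2b* and *Acap3* had 0.51 and 0.64. Others of these pairs were lower, as *Dvl1* and *Acap3* with 0.02 and 0.21. *Prxl2b* and *Mxra8* had an r of 0.83 in the 10 males, which rested on LP males 3 and 4, since it was 0.34 without them. *Vwa1* ran against *Prxl2b* in the 10 males (r -0.77, rho -0.90, and r -0.89 without LP males 3 and 4, the farthest from the median of *Prxl2b*). It also ran against *Dvl1* (r -0.87, rho -0.83, and r -0.89 without LP male 2 and NP male 1).

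**Figure D5:**
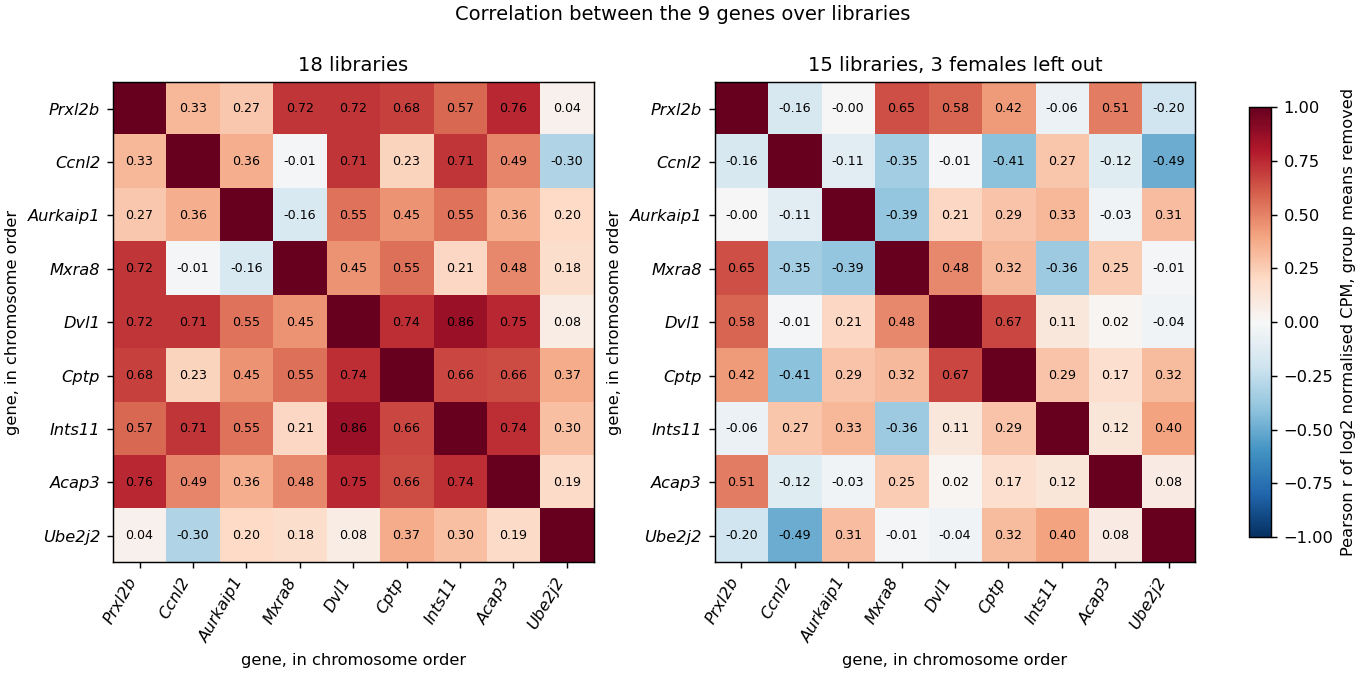
Pearson r between the 9 genes (both axes, in chromosome order) of log2 normalised CPM with group means removed, over 18 libraries on the left and without the 3 females that stood apart on the right, on a color scale from -1 to 1. The block of positive values on the left (median 0.46) thins on the right (median 0.12), where *Dvl1* and *Cptp* keep 0.67, *Prxl2b* and *Mxra8* 0.65, and *Prxl2b* and *Dvl1* 0.58.

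Over all genes the pattern most like that of *Dvl1* in 18 libraries, with group means removed, was that of *Nmral1* (r = 0.95), *Gba2* (0.94), *Tcf3* (0.93), *Dcaf4* (0.93), and *Nicn1* (0.93), of which *Gba2* alone is also on chromosome 4. Without the 3 females these fell to between 0.34 and 0.67. Among 12664 other genes, *Ints11* ranked 62, *Acap3* 425, *Cptp* 499, *Prxl2b* 601, and *Ccnl2* 624 by their r with *Dvl1*. *Aurkaip1* ranked 1908, *Mxra8* 2878, and *Ube2j2* 6135. For *Cptp* the 5 most like were *Id2*, *Nrep*, *Klhl36*, *Akr1c19*, and *Ykt6*, with r between 0.83 and 0.85, and *Dvl1* ranked 57.

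Genes with related roles were listed for 7 of the 9 genes, and none for *Prxl2b* or *Mxra8*. Of the 30 Wnt transducers other than *Dvl1* tested in males, 0 were called by edgeR or DESeq2 and 1 had an unadjusted P under 0.05. The median log2 fold change of the list, *Dvl1* included, was 0.06, against -0.0039 over all genes. Its relatives *Dvl2* (7.15 ± 0.658 normalised CPM in LP males and 7.26 ± 1.14 in NP males) and *Dvl3* (37.8 ± 3.39 and 42.4 ± 4.43; mean ± SD, n = 5) overlapped between the groups. In females 0 of 30 Wnt transducers were called by edgeR or DESeq2, and 0 had an unadjusted P under 0.05.

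Between the sexes, 7 of 30 Wnt transducers were higher in females by edgeR, against 11.5% of all genes, and 1 was higher in males, against 7.22%. Higher in females were among others the coreceptor *Ror2* (-2.05, adjusted P = 4.01e-05), the planar polarity gene *Prickle1* (-1.38, adjusted P = 2.80e-06), and the receptor *Fzd3* (-0.99, adjusted P = 0.00163), and higher in males was *Vangl1* (0.83, adjusted P = 6.76e-07). The other 4 higher in females were *Fzd2*, *Fzd4*, *Fzd7*, and *Rnf43*.

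Of the Integrator subunits, 0 of the 14 other than *Ints11* were called by edgeR or DESeq2 in males, and 0 of 15 in females or between the sexes. At an unadjusted P under 0.05 were 1 of the 14 in males, 0 of 15 in females, and 3 of 15 between the sexes. Of the genes for the small mitochondrial ribosomal subunit, 0 of the 28 other than *Aurkaip1* were called by diet in males. In females 0 of 29 were called, and 1 had an unadjusted P under 0.05. Between the sexes *Mrps18b* (0.73, edgeR adjusted P = 0.000151) was higher in males and *Mrps25* (-0.68, adjusted P = 0.000424) in females. Of the genes of endoplasmic reticulum-associated degradation, 0 of the 8 other than *Ube2j2* were called by diet in males, and 0 of 9 in females. Between the sexes 4 of the 9 were higher in males by edgeR, against the 7.22% of all genes, namely *Sel1l* (1.04, adjusted P = 3.33e-05), *Vcp* (0.67), *Derl2* (0.65), and *Derl1* (0.64). Of the glycolipid and ceramide transfer genes, 0 of the 3 other than *Cptp* were called by diet in males, and 0 of 4 in females. Between the sexes *Plekha8* was higher in males (1.15, edgeR adjusted P = 1.02e-06). Of the cyclin L genes and partners other than *Ccnl2*, and the genes around Arf6 other than *Acap3*, 0 were called by edgeR or DESeq2 in males. Of all 5 and all 8, 0 were called in females or between the sexes, with 2 and 4 at an unadjusted P under 0.05 between the sexes. These lists were written with earlier results of the data known.

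Where exons of a gene on the other strand overlap a member, a non-directional library cannot assign the reads. *Tas1r3*, a taste receptor gene, shares 3495 exon bases with *Dvl1*. Yet of the reads counted for *Dvl1* on either strand, a median of 1.81% per library was left out of the strand-blind count. *Pusl1* shares 3554 exon bases with *Ints11* (median 9.49% left out), and *Mmel1* shares 1405 with *Prxl2b* (median 0%). The medians were 18.8% for *Ccnl2*, 10.96% for *Mxra8*, 1.08% for *Acap3*, and 0% for *Cptp* and *Aurkaip1*. With reads counted per strand and summed, the male log2 fold changes were -0.62 for *Dvl1*, -0.77 for *Cptp*, -2.13 for *Prxl2b*, and -0.26 for *Ints11*.

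Of the 46 other genes tested between the sexes in the same stretch of the chromosome, 3 were higher in males by edgeR, against 7.22% of all genes, and 11 higher in females, against 11.5%. Higher in males were *Nadk*, *C1qtnf12*, and *Vwa1*, and higher in females were *Prdm16*, *Prdm16os*, *Gm27202*, *Tmem52*, *Mmp23*, *Fndc10*, *Gm16008*, *Ttll10*, *Gm13648*, *9430015G10Rik*, and *Klhl17*. None of these adjoins *Mxra8*: its neighbours *Aurkaip1* and *Dvl1* had sex differences of -0.08 and -0.48, against -1.31 in *Mxra8*.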

How the data were processed

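Kidney RNA of 18 mice was analysed, 1 poly(A)-selected, non-directional library per mouse. As deposited by the authors, the files hold raw counts of reads per gene, made with STAR on GRCm39 (GENCODE vM36). The count taken without regard to strand was used, in which reads over genes of both strands are dropped, and totals of unassigned reads (28.6% to 36.1% of reads per library) were left out. A gene was tested if every library of the comparison had 10 counts of it or more. Tests used edgeR 4.0.16 (R 4.3.3) with TMM normalization, its quasi-likelihood test, and Benjamini-Hochberg adjustment over all genes tested. Calls required an adjusted P below 0.05 together with a 1.5-fold or larger difference. Male and female diet groups were fitted separately, and the sex contrast over all 4 groups. The study used DESeq2, run here (1.42.0) as an alternative. SE is the log2 fold change divided by the square root of F. Correlations used log2 CPM with a prior count of 2. Scripts were tested on simulated counts. Tables were handled with pandas 2.3.3.

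The 9 genes, the lists, and the tests were chosen with earlier results of these data known. The genes named are the 9; others from the last stretch of chromosome 4 that were called, separated in males, or overlap or adjoin the 9; the 5 most correlated with *Dvl1* and *Cptp* (a like list for the mean of the 9, and 1 listed kidney marker, are not reported here); and list genes called. *Vwa1* and *Ankrd65* were named after their values were seen. Positions and sequences come from GENCODE vM39 and GRCm39, which place 78168 of the 78239 genes. Alternatives were DESeq2's size factors and Wald test, no filter, counts summed over strands, the replicate number as a block, all 4 groups in 1 model, leaving out each library, leaving out 3 females, and each diet alone. Libraries were not treated as paired by replicate number. With group means removed, same-numbered LP and NP males correlated at -0.27 to 0.30 and females at -0.58 to -0.37. Same-numbered males and females correlated at -0.24 to -0.0024 in LP and at -0.25 to 0.46 in NP. Values for libraries of unlike number are not given.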

Additional observations from a re-analysis of the deposited data

Results flagged for a closer look

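In 2 of the 27 sets of 5 libraries examined for the 9 genes, a single mouse lay far from the others of its group, and chance alone gives about 1 in 20. *Prxl2b* stood at 54.3 normalised CPM in LP male 4, while the next LP male had 18.01 and the lowest had 7.26. *Ccnl2* stood at 92.2 normalised CPM in LP male 1, while the next LP male had 61.8 and the lowest had 50.4. What sets these mice apart was not tested.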

How the results depend on the processing

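Without each library in turn the male log2 fold changes ranged from -2.84 to -1.91 for *Prxl2b* and from -0.90 to -0.67 for *Cptp*. They ranged from -0.65 to -0.58 for *Dvl1*, -0.36 to -0.29 for *Ints11*, and -0.33 to 0.066 for *Mxra8*. *Prxl2b* and *Mxra8* without LP male 4, and *Ccnl2* (-0.29) without LP male 1, moved by more than their SE. The number of genes called over the genome also varied. In males it was 5, and it was 15 by DESeq2 (4 up, 11 down), 9 with no filter, 2 with the replicate block, 1 with all 4 groups in 1 model, and 2 to 6 without each library in turn. It was 2 without LP male 2 or 5 or NP male 2, 3, or 5, 3 without LP male 1 or 3 or NP male 1 or 4, and 6 without LP male 4. In females it was 0, and it was 9 by DESeq2, 3 with no filter, 2 with all 4 groups in 1 model, 1 without the 3 females that stood apart, and 0 to 2 without each library in turn, with 2 without NP female 2. The number called between the sexes stayed within 1.5 times of 2370. The median r of 0.46 between the 9 genes was 0.10 in the 10 males and, in an alternative added after the data had been seen, 0.12 without the 3 females. Female log2 fold changes that changed sign were those of *Mxra8* (-0.40), *Cptp* (-0.27), and *Ube2j2* (-0.021) without the 3 females, *Dvl1* (0.038), *Ints11* (0.034), and *Acap3* (0.013) with the replicate block, and *Ube2j2* (-0.18) with strands summed. Without each library in turn they ranged from -0.14 to 0.32 for *Mxra8*, -0.33 to 0.14 for *Dvl1*, -0.085 to 0.30 for *Cptp*, -0.22 to 0.030 for *Ints11*, and -0.31 to 0.0083 for *Acap3*. Sex differences that changed sign were those of *Prxl2b* (0.26) and *Aurkaip1* (0.073) without the 3 females, *Prxl2b* (0.48) in NP libraries, *Cptp* (-0.30) and *Ints11* (-0.080) in LP libraries, and *Ints11* (-0.029) with strands summed. Without each library in turn they ranged from -0.20 to 0.0099 for *Aurkaip1* and -0.031 to 0.084 for *Ints11*. That of *Cptp* passed an adjusted P of 0.05 by edgeR without the 3 females. No test is read from the fits within LP or NP libraries, which use the male groups that chose the genes. With the replicate block, the sex differences of *Dvl1* (adjusted P = 0.0547), *Ccnl2* (0.0640), and *Acap3* (0.0745) no longer passed edgeR's test, and the replicate numbers share only a label. The cause of these changes was not tested. With 3 NP females, counts down to 117 for *Acap3*, and SEs from 0.19 (*Ints11*) to 0.53 (*Prxl2b*), small differences in females could go undetected. The part of depth in this was not tested.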
